A study of Mus musculus with 6 samples.

Results

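The integrated stress response is the programme by which cells slow general protein synthesis and switch on a small set of repair genes. The 10 regulators of it examined here were the transcription factors Atf4, Atf5, Ddit3, Cebpb and Cebpg, the inhibitor Trib3, the phosphatase subunit Ppp1r15a, and the effectors Chac1, Sesn2 and Nupr1. They were chosen by gene symbol as factors and direct effectors of the ATF4 axis, without the enzymes of amino acid synthesis, and all 10 members were among the 16472 genes of the authors' deposited table. HT22, an immortalised mouse hippocampal cell line, was exposed for 16 h to AA147, at 10 mM as the labels give it, a unit that may be a misprint for a far lower one, or to DMSO as vehicle. There were 3 libraries per group. AA147 is a compound known to activate ATF6, a sensor of misfolded protein in the endoplasmic reticulum, and the antioxidant factor NRF2. Both groups are the same cell line with no genetic change named, and the labels do not say whether the 3 libraries of a group came from separate cultures.

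In this response, any of 4 kinases phosphorylates the translation factor eIF2 when amino acids run short, proteins misfold in the endoplasmic reticulum, heme is lacking or viral RNA is sensed. General translation then falls, while the messages of Atf4, Atf5, Ddit3 and Ppp1r15a are translated better because of short upstream reading frames in their leaders. ATF4 binds DNA as a dimer with a C/EBP partner and switches on genes for amino acid supply, for redox balance and, when stress lasts, for cell death. Much of this control acts on protein, whereas the values here are mRNA levels.

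The table gives 1 line per gene, with a mean over the 6 libraries and 1 comparison between the groups, and values of single libraries were not analysed here. It does not name the numerator of its fold change. A positive value is read as higher with AA147, because Nqo1, a known NRF2 target, stood at a log2 fold change of 0.93 (SE 0.067) per the authors' deposited table. Genes known as targets of ATF6 or XBP1 go the opposite way under this reading: Xbp1 stood at -1.21, Herpud1 at -0.84 and Dnajc3 at -0.21 per the authors' deposited table. All directions below depend on the reading and would be reversed under the other. It rests on prior knowledge of Nqo1 alone and was not settled by the table. The means summed to 30768012 normalized counts, the size of an average library. Markers of neurons were scarce: of 15 fixed neuronal markers, 3 had a row, and of these Stmn2 and Slc17a7 had means of 6.24 and 3.93 while Tubb3 had 1199 in the authors' deposited table. The remaining 12 neuronal markers were not analysed here. All 6 mesenchymal markers had a row, with means from 181 to 254004, and 5 of them were lower with AA147, at log2 fold changes from -0.81 for Dcn to -1.52 for Col1a1 per the authors' deposited table, each a larger fall than that of any regulator. Tubb3 was called higher at 0.43 and the astrocyte marker Slc1a3, with a mean of 927, lower at -1.30 per the authors' deposited table. Stmn2 and Slc17a7 had negative fold changes there, -1.53 (SE 1.02) and -1.98 (SE 1.26), without an adjusted p. The microglia marker Csf1r, with a mean of 48.0, was called higher at 0.95 (SE 0.336). In bulk RNA a smaller share of cells of one type and less RNA per cell cannot be told apart, and the part of this marker difference in the results below was not tested.

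ATF4 and its partners recognise a composite element made of a C/EBP site joined to an ATF site, searched here as TGATGNAA on both strands. The windows were the RefSeq promoters of mouse assembly GRCm38.p6, from 250 bases before to 50 after each start, and all 10 members had at least 1. Of all 32851 such windows, 3.97% held the element, and among the members Trib3, Chac1 and Nupr1 held it. They are shown so that the letters can be set beside the values of these genes, with that of Asns, the asparagine synthetase gene long known for this element, as a comparison. The palindromic cyclic AMP response element TGACGTCA, known to bind CREB and ATF factors, was found among the members in the window of Ppp1r15a, against 1.79% of all windows. Capitals mark the element, and each line runs 5′ to 3′ on the gene's own strand.
Chac1, element from base -193 to -186 before the start: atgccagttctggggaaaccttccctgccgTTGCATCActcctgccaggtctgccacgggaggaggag
Nupr1, element from base -110 to -103: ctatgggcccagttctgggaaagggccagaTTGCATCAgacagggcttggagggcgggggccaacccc
Trib3, element from base 15 to 22 after the start: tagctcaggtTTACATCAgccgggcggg
Asns, element from base -23 to -16: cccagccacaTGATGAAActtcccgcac
Ppp1r15a, cyclic AMP element from base -12 to -5: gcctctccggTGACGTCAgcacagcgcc
The element of Chac1 and Nupr1 was the same run of 8 letters, and the flanking bases printed differ. Such a match is a description of letters and not a measured binding site, and a window without one says only that these letters are not in it.

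Of the 10 regulators, 4 were lower with AA147 and 0 were higher, at an adjusted p under 0.05, by the authors' deposited DESeq2 comparison. The 4 were Atf4, Atf5, Cebpb and Trib3, with changes in level from -28.3% for Cebpb to -35.0% for Trib3. Over all 13597 genes tested, 11.1% were called lower, 9.05% higher and 20.2% in either direction. Among the 8804 genes whose mean lay within the members' range, 13.5% were called lower. At an unadjusted p under 0.05, reached by 30.6% of all genes tested, the members counted 5 lower and 1 higher, the additional genes being Chac1 and Ppp1r15a. The median log2 fold change of the members was -0.26, beside 0.01 for all genes tested. Because the members were chosen with earlier results known, these shares describe them and are no test of the set.

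**Figure D1:**
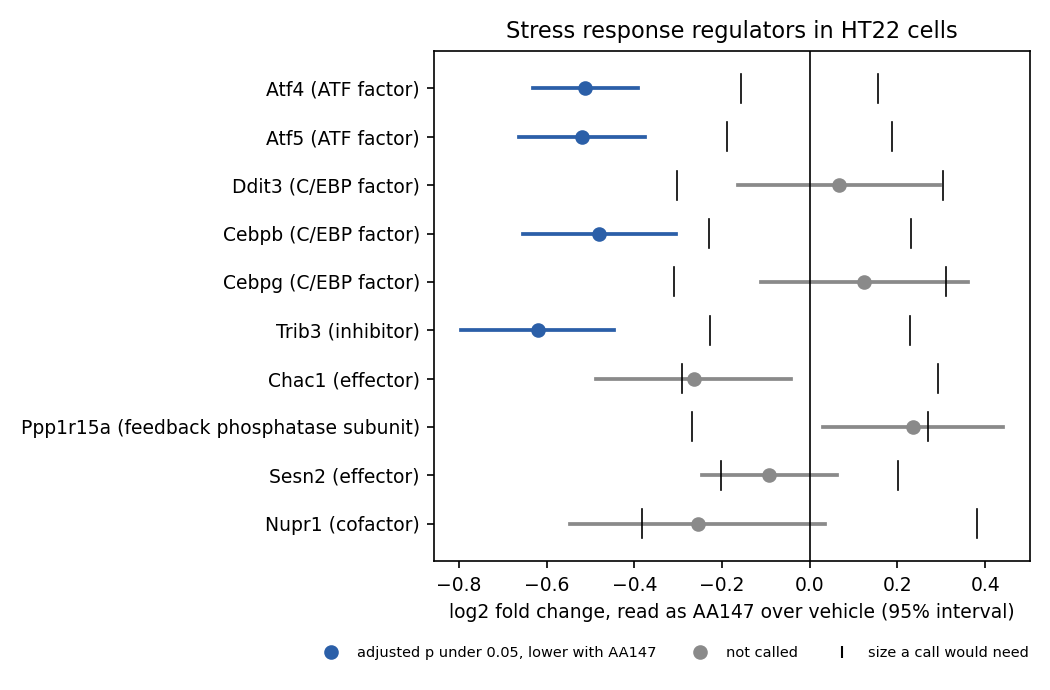
Log2 fold change of each regulator, read as AA147 over vehicle (horizontal axis), with its 95% interval as a bar and, as short vertical marks, the size that a call would have needed at that gene's standard error. Atf4, Atf5, Cebpb and Trib3, in blue, lie beyond their marks, while Chac1 at -0.26 and Ppp1r15a at 0.24 lie just inside theirs.

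The master factor Atf4 was the most abundant regulator, with a mean of 15284 normalized counts in the authors' deposited table. That mean and the fold change imply 17968 normalized counts in vehicle and 12600 with AA147. The log2 fold change of Atf4 in the authors' deposited table was -0.51 (SE 0.061, 95% interval -0.63 to -0.39, adjusted p 2.67e-15), a change in level of -29.9%. Atf5, a related factor that is also controlled by upstream reading frames and drives the mitochondrial stress response, matched it closely. Its mean of 12510 implies 14736 normalized counts in vehicle and 10283 with AA147, and its log2 fold change in the authors' deposited table was -0.52 (SE 0.073, adjusted p 6.24e-11). The difference between the fold changes of Atf4 and Atf5 was 0.01 on the log2 scale, with a 95% interval of -0.18 to 0.19. Only 7.13% of the tested genes had a lower fold change than Atf4 and 6.95% a lower one than Atf5.

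The C/EBP partners of ATF4 differed in their fold changes. Cebpb, which dimerises with ATF4 and also serves inflammation and fat cell formation, fell by 0.48 on the log2 scale in the authors' deposited table (SE 0.090, adjusted p 2e-06). Its implied levels were 3430 normalized counts in vehicle and 2459 with AA147, and it would not be called with an added fold limit of 0.5 on the log2 scale. Cebpg, a partner of ATF4 in the regulation of amino acid and redox genes, had a log2 fold change of 0.12 (SE 0.120, 95% interval -0.11 to 0.36, adjusted p 0.538) per the authors' deposited table. Ddit3 encodes CHOP, the C/EBP relative that promotes cell death under lasting stress, and stood at 0.07 (SE 0.118, 95% interval -0.16 to 0.30, adjusted p 0.765) per the authors' deposited table. The implied levels of Ddit3 were 411 normalized counts in vehicle and 430 with AA147, and reads of the overlapping gene Mars may be among them. The log2 fold change of Cebpb minus that of Cebpg was -0.60 (95% interval -0.90 to -0.31), and minus that of Ddit3 it was -0.55 (95% interval -0.84 to -0.26).

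Cebpd, a further C/EBP factor and no regulator of the chosen 10, had a larger fall, of 1.10 on the log2 scale, in the authors' deposited table (SE 0.082, mean 1434). The log2 fold change of Cebpb minus that of Cebpd was 0.62 (95% interval 0.38 to 0.86). Cebpz, which carries the family name, stood at 0.13 (SE 0.063, adjusted p 0.119) per the authors' deposited table, Cebpe had a mean of 1.97 and no adjusted p, and Cebpa was not analysed here. Among the 10 tested genes listed under the C/EBP, ATF and CREB families, Cebpz counted by name only, 2 (20.0%) were called lower and 0 higher. The 2 were Xbp1 at -1.21 and Cebpd. Of all genes tested, 11.1% were called lower and 9.05% higher in the same authors' deposited DESeq2 comparison. At an unadjusted p under 0.05 the 10 listed genes counted 2 lower and 2 higher, Cebpz among the higher. The other 8 had log2 fold changes from just above 0 to 0.18, and the median of all 10 was 0.04.

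Trib3, a pseudokinase that ATF4 and CHOP switch on and that in turn restrains ATF4, had the lowest fold change of the regulators. Its mean of 877 normalized counts implies 1062 in vehicle and 691 with AA147, and its log2 fold change in the authors' deposited table was -0.62 (SE 0.089, 95% interval -0.79 to -0.45, adjusted p 1.13e-10). The paralog Trib1 stood at -0.21 (SE 0.089, adjusted p 0.0701) per the authors' deposited table, and the value of Trib3 minus that of Trib1 was -0.41 (95% interval -0.65 to -0.16). Trib2 was weakly expressed, with a mean of 44.7 and a log2 fold change of -0.58 (SE 0.326, adjusted p 0.22) per the authors' deposited table, and its difference from Trib3 had an interval of -0.71 to 0.62. Trib3 also parted from Ddit3, the factor known to induce it together with ATF4, by -0.69 (95% interval -0.98 to -0.40).

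Ppp1r15a encodes GADD34, the stress-induced subunit that brings protein phosphatase to eIF2 and so ends the response. It had the highest fold change of the regulators, 0.24 (SE 0.104, 95% interval 0.03 to 0.44), with an adjusted p of 0.0959 per the authors' deposited table, so it was not called. The implied levels of Ppp1r15a were 723 normalized counts in vehicle and 851 with AA147. With a trend on transcript length, GC content and mean expression subtracted, its fold change was 0.27 and its adjusted p 0.0403. Under every other alternative Ppp1r15a was not called. Its adjusted p was 0.122 with fold changes centred on the median of abundant genes. With the SE raised to the median of genes of similar mean it was 0.0997. The constitutive paralog Ppp1r15b stood at -0.15 (SE 0.100, adjusted p 0.313) per the authors' deposited table, and Ppp1r15a exceeded it by 0.39 (95% interval 0.10 to 0.67).

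None of the 3 effectors was called in the authors' deposited DESeq2 comparison, where 1 of them, Chac1, had an unadjusted p under 0.05. Chac1, an enzyme that breaks down glutathione, had a log2 fold change of -0.26 (SE 0.113, 95% interval -0.49 to -0.04, adjusted p 0.0841) per the authors' deposited table, with implied levels of 554 normalized counts in vehicle and 461 with AA147. Its paralog Chac2, a slower enzyme of the same kind, was called higher at 0.40 (SE 0.154, adjusted p 0.048) per the authors' deposited table. The call of Chac2 was lost under 7 of 8 alternatives, among them adjustment over all genes with a p (adjusted p 0.0574), centring on abundant genes (0.0584), an SE raised to the median of similar genes (0.0677) and subtraction of the length, GC and expression trend (0.117). The difference of Chac1 from Chac2 was -0.66 (95% interval -1.04 to -0.29). Sesn2, a leucine sensor that restrains mTORC1, stood at -0.09 (SE 0.078, 95% interval -0.25 to 0.06, adjusted p 0.467) per the authors' deposited table. Its paralog Sesn1, a p53 target, was called lower at -0.34 (SE 0.100, adjusted p 0.0054) and Sesn3 was not called at 0.05 (SE 0.137, adjusted p 0.842) per the authors' deposited table. The interval of Sesn2 minus Sesn1 reached from just above 0 to 0.50, and that of Sesn2 minus Sesn3 from -0.46 to 0.16.

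Nupr1, a small chromatin-associated stress protein, was the least abundant regulator by count, with a mean of 294 normalized counts and a log2 fold change of -0.26 (SE 0.149, 95% interval -0.55 to 0.04, adjusted p 0.235) per the authors' deposited table. Its relative Nupr1l had a mean of 4.59 and no adjusted p. In all, 12 pairs of related genes were compared, and 9 of the unadjusted intervals did not include 0. These pairs were picked with the values known. The share among other pairs of genes was not computed, so the count does not show that relatives differed more than other genes. Each interval treats the errors of both genes as independent, although both come from the same libraries, and so describes the gap rather than tests it.

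**Figure D2:**
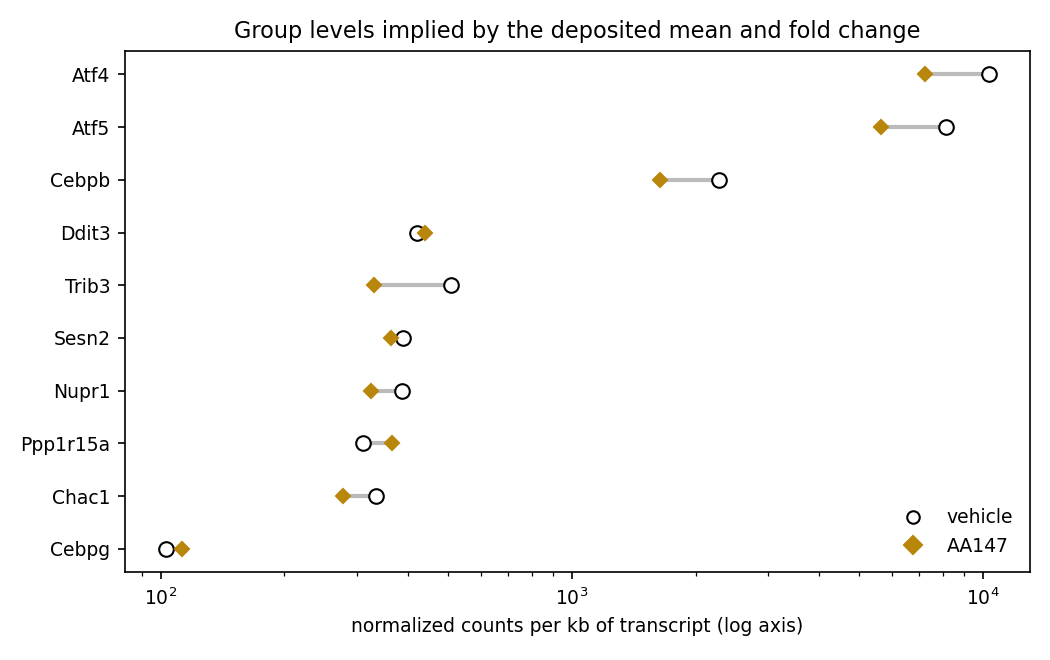
Normalized counts per kb of transcript for each regulator, on a log axis, implied for vehicle (open circles) and AA147 (diamonds) by the deposited mean and fold change. The regulators are ordered by their mean per kb, and the wide gaps of Atf4, Atf5, Cebpb and Trib3 all point to a lower level with AA147.

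Per length, the regulators spanned a wide range of levels. Atf4 led with a mean level of 8779 normalized counts per kb of transcript, followed by Atf5 at 6889 and Cebpb at 1958. Ddit3 at 429 and Trib3 at 419 normalized counts per kb came next, followed by Sesn2 at 376, Nupr1 at 355, Ppp1r15a at 337 and Chac1 at 305. Cebpg was lowest at 108 normalized counts per kb. The 3 most abundant regulators by this scale were all lower with AA147, while of the 7 others Trib3 alone was called. Transcript lengths were those of the canonical transcripts in GENCODE release M39. The spread of a level over libraries is not known, so the order from Ddit3 to Chac1 cannot be read as real differences.

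The SE was smallest for Atf4 and largest for Nupr1, the most and the least abundant member by count, with no strict order between. Counting error alone, at the implied levels, would give an SE of 0.0097 for Atf4, beside the SE of 0.061 in the authors' deposited table, and for Nupr1 it would give 0.069 beside 0.149. For every member the SE was between 0.93 and 1.26 times the median of the 500 genes nearest in mean. DESeq2 draws the spread of a gene toward that of genes of similar mean, so this likeness is partly fixed by the method. It does not show that the members varied between libraries as other genes do. At these errors a call needed a log2 change of at least 0.16 for Atf4, 0.19 for Atf5, 0.20 for Sesn2, 0.23 for Cebpb and Trib3, 0.27 for Ppp1r15a, 0.29 for Chac1, 0.30 for Ddit3, 0.31 for Cebpg and 0.38 for Nupr1. A change in Ddit3 as large as that of Atf4 lies outside the 95% interval of Ddit3 as listed. For Nupr1 the interval includes a fall of that size, so the absence of a call does not show that Nupr1 acted differently from Atf4.

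**Figure D3:**
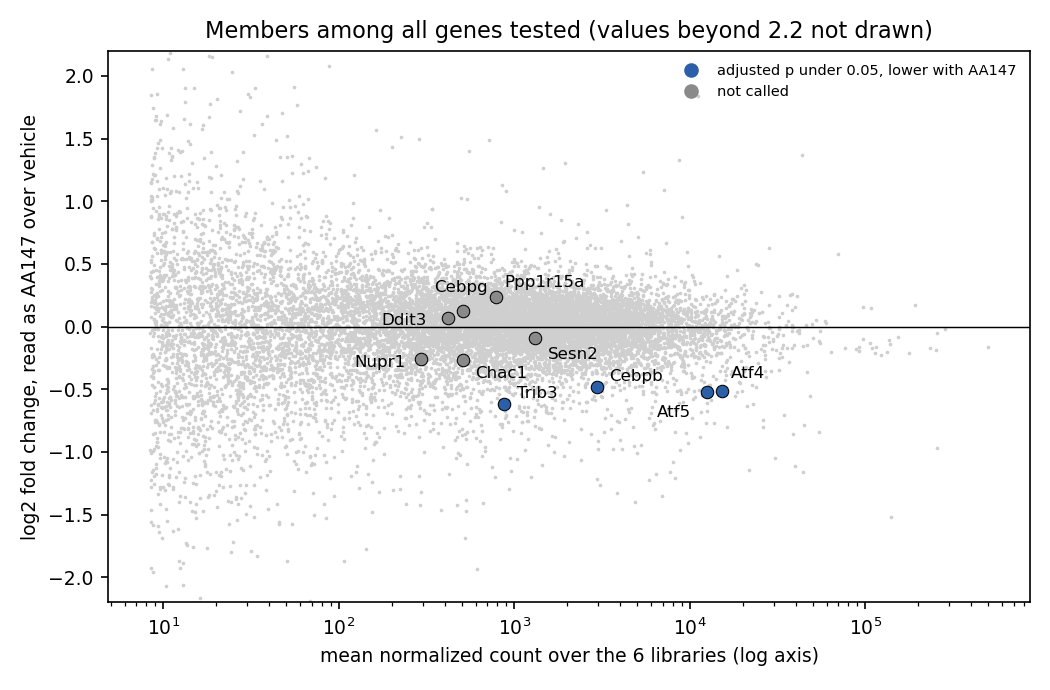
Log2 fold change (vertical axis) against the mean normalized count on a log axis for all genes tested, in grey, with the regulators as large points. Atf4, Atf5, Cebpb and Trib3 lie between -0.48 and -0.62, where 5.13% to 7.84% of all genes tested had a lower fold change, and the other 6 lie between -0.26 and 0.24.

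Some counts could include reads of a neighbour, because the libraries were not stranded. In GENCODE release M39, Ddit3 shares 74 of its 979 transcript bases with Mars1 on the opposite strand, listed as Mars with a mean of 8466 and a log2 fold change of -0.16 (SE 0.054) per the authors' deposited table, and 104 bases with the noncoding Gm4189. At even coverage, the level of Mars, 2881 normalized counts per kb, would place 213 counts on those 74 bases, which is 50.7% of the mean of Ddit3. How the authors assigned such reads is not given in the sources used here, so the value of Ddit3, and each difference from it given above, is uncertain. Atf5 shares 82 of 1816 bases with Nup62, which stood at -0.08 (SE 0.067, adjusted p 0.463) per the authors' deposited table, and with Il4i1, whose mean was 4.84. At even coverage, Nup62 would place 89.2 counts on those bases, which is 0.71% of the mean of Atf5, and Il4i1 0.14 counts. Cebpg shares 4 bases with a noncoding gene. The transcript of each member aligned to 1 place in the genome, so no near-identical copy was found that could take its reads.

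The machinery upstream of Atf4 was called about as often as all genes tested. Of 22 genes for the eIF2 kinases, eIF2, its exchange factor eIF2B, the phosphatase and their regulators, 3 (13.6%) were called lower and 2 (9.09%) higher, beside 11.1% and 9.05% of all genes tested. Their median log2 fold change was 0.05, beside 0.01. Among the kinases in the authors' deposited table, Eif2ak1, the heme-regulated kinase, was called higher at 0.20 (SE 0.076, adjusted p 0.0435). The call of Eif2ak1 was lost under 5 of the 8 alternatives, with an adjusted p of 0.052 over all genes with a p and 0.0644 after centring. Eif2ak3, known as PERK and the sensor in the endoplasmic reticulum, stood at -0.19 (SE 0.084, adjusted p 0.0844) per the authors' deposited table. Eif2ak2, which senses double-stranded RNA, and Eif2ak4, which senses uncharged tRNA, stood at 0.08 and 0.05 in the authors' deposited table, with adjusted p-values of 0.535 and 0.665. Further calls of the authors' deposited table were the eIF2 subunit Eif2s2 at -0.23 (adjusted p 0.0387) and the PERK inhibitor Dnajc3 at -0.21 (0.0183). The last were the phosphatase subunits Ppp1ca at -0.20 (adjusted p 0.00274) and Ppp1cb at 0.21 (0.0197). At an adjusted p under 0.01 these 22 genes held 1 lower and 0 higher calls, and with a Bonferroni adjustment 0 and 0.

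Among known ATF4 targets outside the chosen regulators, most amino acid genes and synthetases were called lower. Of 20 tested enzymes and transporters for amino acids under ATF4, 17 (85.0%) were called lower and 0 higher in the authors' deposited DESeq2 comparison. Of all genes tested, 11.1% were called lower and 9.05% higher. The amino acid genes had a median log2 fold change of -0.44. All 20 had a negative fold change, so at an unadjusted p under 0.05 the higher count was again 0. The largest falls listed by the authors' deposited table belonged to Aldh18a1, of proline synthesis, at -0.75 (SE 0.062), Psph, of serine synthesis, at -0.69 (SE 0.084), and Slc7a5, a leucine transporter, at -0.67 (SE 0.069). Of 12 cytosolic aminoacyl-tRNA synthetases, the enzymes that load amino acids onto tRNA, 9 (75.0%) were called lower and 0 higher. The shares of all genes tested were again 11.1% and 9.05%. The synthetases had a median of -0.25, and 0 were higher also at an unadjusted p under 0.05. With an added fold limit of 0.5 on the log2 scale, 7 amino acid genes and 0 synthetases were called lower. A Bonferroni adjustment left 13 amino acid genes and 4 synthetases called lower. These counts were not set beside shares of all genes at the same limits. Yars at -0.42, Cars at -0.38 and Tars at -0.36 were the lowest of them in the authors' deposited table.

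Of 14 other tested targets of ATF4 and CHOP, 3 (21.4%) were called lower and 1 higher, beside 11.1% and 9.05% of all genes tested. With so few genes these counts describe the list only. The median log2 fold change was -0.10. By the authors' deposited table, the 3 were Herpud1, a factor of protein degradation at the endoplasmic reticulum, at -0.84 (SE 0.071), the transcriptional repressor Jdp2 at -0.54 (SE 0.086) and the lipoprotein receptor Vldlr at -0.40 (SE 0.094). The 1 higher gene was Gdf15, a secreted stress cytokine, at 2.76 (SE 0.830, adjusted p 0.0073), but its mean was only 10.3 normalized counts in the authors' deposited table. Atf3 was not analysed here.

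**Figure D4:**
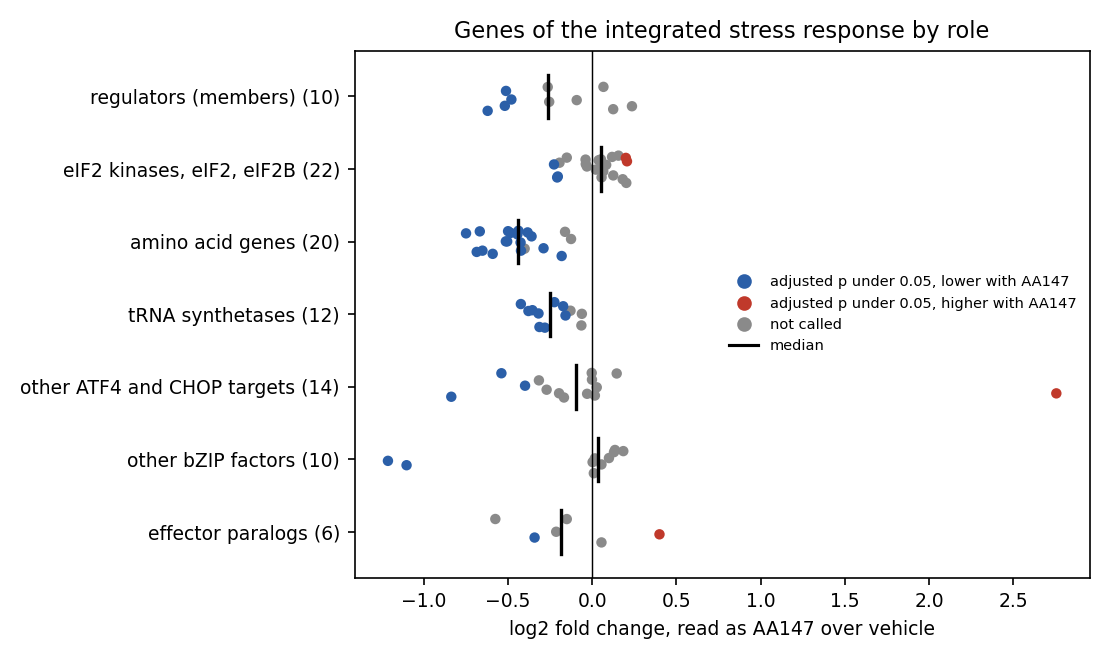
Log2 fold change of each tested gene (points) by role, with the number of tested genes in brackets and the median as a vertical line. The regulators spread on both sides of 0 around a median of -0.26, the amino acid genes lie below 0 around -0.44, and the upstream genes lie around 0.05. The row labelled other bZIP factors includes Cebpz, counted there by name only.

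Only 3 regulators held the composite element, too few to judge whether it goes with their change. Among the 3 with a match, Trib3 was called lower, and Chac1 and Nupr1, which hold the same 8 letters, both stood at -0.26 without a call in the authors' deposited table. Atf4, Atf5 and Cebpb were called lower without a match in their windows. Across the members and the related lists, 17 tested genes held the element, of which 12 were called lower and 0 higher in the authors' deposited DESeq2 comparison, Asns at -0.51 (SE 0.066) among them. Since most of these genes came from lists of known ATF4 targets, this count describes them and does not measure an effect of the element. Of the 270 tested genes found with the element in a window, 14.8% were called lower and 8.52% higher. The shares were 11.4% and 9.71% for 9317 tested genes with a window and no match. Genes whose symbol matched no window were not searched, and a window was matched for 7 of 12 synthetases and 17 of 21 amino acid genes. The counts of genes with the element are therefore incomplete.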

How the data were processed

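Non-stranded mRNA libraries of HT22 cells, 3 with AA147 and 3 with vehicle, were compared. Per the submitters' processing notes DESeq2 was used and the build mm9 is named. The aligner, counter, annotation and filters are not given in the sources used here. The authors deposited 1 line per gene: a mean normalized count, which is a signal scaled to an average library, a log2 fold change with its standard error, a test statistic, which is a score equal to their quotient within 3.06e-07, and p-values before and after adjustment. Adjusted p-values existed for 13597 genes and followed Benjamini-Hochberg; the other 2875 genes had means of at most 8.41.

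From these, 95% intervals (normal quantile times SE), implied group levels (equal groups, fold change at face value) and the size needed for a call (2.58 times the SE) were computed. The members, lists and pairs were chosen with earlier results of these data known. Named genes were the members, the 3 called genes with the largest change per direction in each list, the eIF2 kinases, the C/EBP family and the paralogs; other genes were named after their values were seen. A list gene was matched by symbol or by an older RefSeq symbol. The fixed lists of brain cell markers other than neuronal and mesenchymal ones had 9 of 19 genes in the table, all but Slc1a3, at 927, with means of at most 48.0. No coordinates are given, since the reference builds differ from mm9. The code for calls was tested on simulated data. Python 3.11.15, pandas 2.3.3, SciPy 1.17.1, statsmodels 0.14.6 and minimap2 2.31 were used. The depth of single libraries is unknown.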

Additional observations from a re-analysis of the deposited data

How the results depend on the processing

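No paired analysis was possible because the deposited values are 1 line per gene over all libraries, and for the same reason no library could be left out in turn. Of 62 recomputed results, 53 kept their direction and their side of the threshold or stayed within 1.5 times the count. Of the others, 8 counts moved, 1 gene became called and 0 reversed. Part of this was fixed in advance, since a stricter limit cannot add a call and a raised SE changes no fold change. The limit of 100 on the mean also removes no member, as the lowest member mean is 294. The count of 4 lower members was 4 under 7 alternatives and 3 with a fold limit of 0.5 on the log2 scale, which Cebpb misses. After subtraction of a trend on transcript length, GC content and mean, the higher members numbered 1, Ppp1r15a at 0.27. The same step made the 4 falls smaller, to -0.42 for Atf4, -0.41 for Atf5, -0.39 for Cebpb and -0.57 for Trib3. All 4 stayed called, and the cause of these shifts was not tested. The related lists held 35 lower and 4 higher calls. These became 21 and 0 with a Bonferroni adjustment and 11 and 1 with the fold limit, both stricter by construction. The higher count was 1 at an adjusted p under 0.01, 2 with the adjustment over all genes with a p, and 2 with fold changes centred on the median of abundant genes. For the synthetases the trend alternative is void, since 2 of 12 had a matched length. The lower count of the related lists under the trend, 24, is among the results kept, although it lacks those synthetases without a length. Among the members counting error is largest for Nupr1, 0.069 beside an SE of 0.149.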

Other observations

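A further 2 elements were searched in the same RefSeq windows. TGACGTGG, the element known to bind XBP1s and ATF6, was in 0.676% of all windows and in those of 0 members. Of the 100 tested genes that held it, 18.0% were called lower and 4.0% higher, against 11.4% and 9.74% of the 9487 tested genes with a window and no match. TGACNNNGC, the antioxidant response element known to bind NRF2, was in 12.4% of all windows and in those of 3 members, Cebpb, Sesn2 and Ppp1r15a. Of the 1610 tested genes that held it, 11.1% were called lower and 10.9% higher. The shares were 11.5% and 9.44% for tested genes with a window and no match. These shares are descriptions, and no test was made of them.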
